A study of Mus musculus with 12 samples.

Results

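Of the 204 unique mito-piRNA sequences listed in 12 mouse gonadal libraries, 32 matched the mouse mitochondrial DNA (mtDNA) at every base except the last, 3′ base. These 32 sequences were chosen by sequence alone: their best place on the 16299 bp mtDNA of GRCm39, on either strand, held exactly 1 mismatch and that mismatch was the 3′ base. They made up 32 of the 45 sequences with 1 mismatch (71.1%), the other 13 being mismatched at an internal base, while 159 sequences matched exactly. A mito-piRNA is here a small RNA that the authors matched both to mtDNA and to the piRNA-IPdb collection of known piRNAs, with up to 1 mismatch in each.

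The libraries were made from small RNA of primordial germ cells (PGCs) and gonadal somatic cells (SCs) of CD1 mouse embryos, female (F) and male (M), from embryonic days E11.5, E12.5 and E13.5, and are named by cell type, day and sex (PGC11F is the female PGC library of E11.5). No allele, transgene or treatment is named for any group, so all 12 share an untreated CD1 background. PGCs were separated from the other gonadal cells with magnetic beads that bind CD15, a PGC surface antigen, and gonads from several litters were pooled, which left 1 library for each combination of cell type, sex and day. The paper states that both fractions were checked for purity with a stain specific to PGCs. The files hold mitochondrial sequences alone, with no marker gene against which the labelled cell types could be checked here.

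Mitochondrial transcripts are made as long precursors on both strands and are cut apart mainly where tRNAs punctuate them, so tRNAs and rRNAs have defined 5′ ends, and shorter pieces of them are found among small RNAs. The 3′ end of a small RNA can differ from its gene for known reasons: nucleotidyltransferases add non-templated bases to small RNAs, and every mature mitochondrial tRNA receives the letters CCA, which the mtDNA does not encode, at its 3′ end. A base misread in sequencing or introduced during library preparation gives a read of the same form. For each sequence, the exact sequence 1 base shorter is called its parent below, and the exact sequence of the same start and length, which carries the mtDNA base in the last place, is called its template.

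Sequences are named by gene, length and last base. The first set below shows the 12 sequences that began at the first base of tRNA-SerGCT (mt-Ts2, chrM:11613-11671, plus strand), because they held most of the reads and show the mismatch recurring at 9 lengths of a single fragment series; lower case letters match the mtDNA and the capital is the mismatched 3′ base. The files write T for U.
SerGCT-16G: aagaaagattgcaagG
SerGCT-18T: aagaaagattgcaagaaT
SerGCT-19C: aagaaagattgcaagaacC
SerGCT-19G: aagaaagattgcaagaacG
SerGCT-21T: aagaaagattgcaagaactgT
SerGCT-22C: aagaaagattgcaagaactgcC
SerGCT-22G: aagaaagattgcaagaactgcG
SerGCT-25C: aagaaagattgcaagaactgctaaC
SerGCT-26C: aagaaagattgcaagaactgctaatC
SerGCT-26G: aagaaagattgcaagaactgctaatG
SerGCT-27T: aagaaagattgcaagaactgctaattT
SerGCT-31T: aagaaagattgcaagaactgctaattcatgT

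The second set shows the most abundant sequences of the other genes, a pair that differed from the same D-loop template by different bases, and a sequence that crossed the 3′ end of a tRNA. Capitals again mark the mismatched base.
12S-18T: aaaggtttggtcctggcT
16S-18T: actaatcctagccctagT
Dloop-21A: gaattgatcaggacatagggA
Dloop-21C: gaattgatcaggacatagggC
Phe-19C: attgtatcccataaacacC

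These lie at chrM:70-87 on the plus strand (first 18 bases of 12S rRNA, mt-Rnr1), at chrM:1094-1111 on the plus strand (first 18 bases of 16S rRNA, mt-Rnr2), at chrM:16168-16188 on the minus strand of the D-loop, the control region that holds the mtDNA promoters and no gene, and at chrM:52-70 on the plus strand, across the end of tRNA-Phe (mt-Tf, chrM:1-68). With positions counted from 1 at the 5′ end and the mtDNA base written first, the changes among the abundant sequences were T22C and T22G at the same place of tRNA-SerGCT, T19C, C21T, T25C, T26C and C31T at other lengths of that series, C18T in both rRNAs, and T21A in the D-loop. Phe-19C carried A19C.

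The libraries SC13M and PGC13F stood apart and bear on the values that follow. SC13M listed 24 of the 32 sequences and held 5961 of their 13590 reads (43.9%), and 10 of the 32 were listed in SC13M alone. In PGC13F, exact sequences ending in C held 7.24% of the exact reads, against 24.8% to 39.8% in the other libraries, and exact sequences ending in A held 39.3%, against 2.81% to 8.28%. Those ending in T held 33.8% (48.4% to 60.4% elsewhere) and those ending in G 19.7% (5.34% to 15.7% elsewhere). Of 11 exact sequences ending in C that were listed in at least 9 of the other libraries, 4 were listed in PGC13F, while the forms 1 base shorter were listed there for 11 of 11. For 19 such sequences ending in T the counts were 13 and 8, and the unlisted ones include abundant templates of the mismatched forms. No sequence with a mismatched last C was listed in PGC13F. What sets these libraries apart was not tested, and it is not known whether reads of PGC13F were trimmed at the 3′ end like the others, so its last bases, parents and templates may not be comparable with theirs. The libraries listed 16061 to 59545 mito-piRNA reads. Levels are given in rpm, reads per 1000000 reads of all small RNAs above the cut-off on listing, and the lowest count listed came to 14.6 to 17.8 rpm. A sequence listed in some libraries but not in another may be below about that level there rather than absent. A sequence listed in no library may also lack a match in piRNA-IPdb, whatever its level.

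The 32 sequences together held 13590 of the 403352 mito-piRNA reads (3.37%), and the 13 internally mismatched sequences held 9014 (2.23%). Their median was 204.5 reads summed over the libraries (388 for exact and 178 for internally mismatched sequences) and their median length was 21 bases (23 for exact sequences and 20 for internally mismatched ones). A single library listed 17 of the 32 (53.1%), compared with 57 of the 159 exact sequences (35.8%) and 7 of the 13 internally mismatched ones (53.8%), and none was listed in more than 7 libraries. All 32 had a single best place on the mtDNA.

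The last base was C in 11 sequences (5466 reads, 40.2% of the reads of the 32), T in 11 (5017 reads, 36.9%), G in 6 (1966 reads, 14.5%) and A in 4 (1141 reads, 8.40%). It stood in place of a T of the mtDNA in 15 sequences, a C in 10, a G in 4 and an A in 3. Exchanges of a pyrimidine for the other pyrimidine led, with 10 sequences of T-to-C (5333 reads, 2508 of them in SC13M) and 10 of C-to-T (4933 reads, 1413 of them in SC13M). Together with A-to-G (2 sequences) and G-to-A (3), such transitions made up 25 of the 32 sequences and 10968 reads (80.7%). The 7 transversions were 4 T-to-G (1652 reads, 1519 of them in SC13M), 1 T-to-A (753 reads, 107 of them in SC13M), 1 A-to-C (133 reads) and 1 G-to-T (84 reads). Without SC13M, C-to-T held more reads than T-to-C, and T-to-A more than T-to-G.

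The exact sequences themselves ended most often in T (71 of 159) and in A (36), followed by C (34) and G (18). By reads their order was T (199921), C (108146), G (40855) and A (31826). A form with a mismatched last base was listed for 10 of the 34 ending in C (29.4%), 10 of the 71 ending in T (14.1%), 2 of the 36 ending in A (5.56%) and 1 of the 18 ending in G (5.56%). These shares take no account of how many reads the exact sequences had. The mismatched base repeated the base before it in 6 of the 32 sequences and equalled the next mtDNA base in 9. Files hold sequences with at most 1 mismatch, so a sequence with a second non-matching base would not be listed, and no listed sequence began with any of the 32 and went on for 1 more base.

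The G-ending sequences were nearly all from a single library. All 6 were listed in SC13M (1833 reads), SerGCT-22G was also listed in SC13F (133 reads), and none was listed in the other 10 libraries. Without SC13M, G would account for 1.74% of the reads, A for 12.2%, C for 38.8% and T for 47.2%. Sequences with T-to-G held 8.44% of the reads of themselves and their templates in SC13M and 1.25% in SC13F. T-to-C stood at 8.80% in SC13M by the same measure, against 0 to 5.98% elsewhere, and C-to-T at 10.1%, against 0 to 9.48% in the other libraries apart from PGC13F with 31.2%, where most templates were unlisted.

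By gene, tRNA-SerGCT gave 13 of the 32 sequences and 7780 reads (57.2%), 16S rRNA 11 sequences and 2549 reads (18.8%), 12S rRNA 2 sequences and 1922 reads (14.1%) and the reverse strand of the D-loop 3 sequences and 991 reads (7.29%). tRNA-SerTGA, tRNA-Phe and the antisense strand of ND3, a subunit of respiratory complex I, gave 1 each with 131, 133 and 84 reads. The 5′ end was the first base of a tRNA or rRNA gene in 24 of the 32 sequences (11955 reads, 88.0%). Only 10 different 5′ ends occurred, whereas the mismatched bases fell at 26 different positions.

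The tRNA-SerGCT series that starts at position 11613 had the most exact lengths with a mismatched form: 9 of its 18 exact sequences (50%), at lengths from 16 to 31 bases. Its 12 mismatched sequences held 7641 reads beside 145173 exact reads, or 5.26 for every 100. At the first base of 16S rRNA (position 1094), 8 of 20 exact sequences had a mismatched form, but its 9 mismatched sequences held 2261 reads beside 113114 exact reads (1.999 for every 100). In the 12S rRNA series at position 70 the count was 2 of 7 exact sequences and the ratio 9.41 for every 100, and in the D-loop series at position 16188 it was 2 of 10 and 4.05. tRNA-SerTGA (mt-Ts1, chrM:6870-6938, minus strand) was low by comparison, with 1 of 7 exact sequences and 131 mismatched reads beside 30008 exact ones (0.44 for every 100). These ratios have no replicate and are sums over the 12 libraries. Without SC13M they were 3.18 for every 100 in tRNA-SerGCT, 0.986 in 16S rRNA, 7.50 in 12S rRNA, 3.56 in the D-loop and 0.472 in tRNA-SerTGA.

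The mismatched forms were listed mainly where the template was abundant. Counting each exact sequence in each library that listed it, a form with another last base was listed in 12 of 526 cases under 500 template reads (2.28%), in 12 of 112 from 500 to 1000 reads (10.7%), in 22 of 86 from 1000 to 2000 reads (25.6%) and in 15 of 25 at 2000 reads or more (60%). Without SC13M the shares were 1.90%, 8.65%, 20.5% and 44.4%. A form at a fixed share of its template passes the cut-off on listing only where the template is abundant, and the part of that cut-off in this order was not tested.

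A parent was listed for 27 of the 32 sequences and a template for 28, and 3 (Phe-19C, 16S-16A and ND3as-17T, named because they are the exceptions) had neither. For 7 of the 27 the parent was listed in PGC13F alone. Among the 75 cases of a mismatched sequence listed in a library, the template was listed in the same library in 67 and the parent in 55, with neither in 4. The template held more reads in 67 of 67 cases, the mismatched form reaching a median of 10.7% of it (2.08% to 95.5%). Relative to the parent, the median was 16.2% (2.45% to 169%), and the parent held more reads in 53 of 55 cases. In SC13M the median was 8.49% of the template over 23 cases, and in the other libraries 13.6% over 44 cases. These medians cover listed forms alone, so shares below the cut-off on listing are missing from them, and the lowest listed count was smallest in SC13M (66 reads). Summed over the sequences, mismatched forms held 12.9% of the reads of themselves and their templates in SC13M, against 1.10% to 6.28% in the other libraries.

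Copies of mtDNA inserted in the nuclear chromosomes can hold the mismatched base as their own sequence. An exact match in the GRCm39 nuclear chromosomes was found for 3 of the 32 sequences, SerGCT-19C at 1 place and SerGCT-16G and ND3as-17T at 4 places each, and for none of the other 29. By comparison, 67 of 159 exact sequences (42.1%) and 7 of 13 internally mismatched ones (53.8%) had an exact nuclear match. The templates of the 32 sequences had one in 20 of 32 cases, and of the 49 distinct forms with another mismatched last base that no library listed, 12 had one. CD1 mice can carry nuclear and mitochondrial bases that the reference does not, and these were not examined here.

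SerGCT-22C had the most reads of the 32 in sum (1710), and was listed in SC libraries alone. Without SC13M it had 745 reads, below 12S-18T (1148) and SerGCT-31T (837). It had 215 reads in SC11F, 104 in SC12F, 88 in SC12M, 338 in SC13F and 965 in SC13M, and was unlisted in SC11M and in the 6 PGC libraries. Its template had the most reads of all templates, with 675 to 9030 reads in the SC libraries, 1307 to 3090 in 5 PGC libraries, and no listing in PGC13F. As a percentage of the template, SerGCT-22C stood at 8.51% in SC11F, 4.90% in SC12F, 2.76% in SC12M, 5.29% in SC13F and 10.7% in SC13M. The lowest count listed in each PGC library would come to 4.01% of the template in PGC11F, 4.19% in PGC11M, 7.65% in PGC12F, 2.98% in PGC12M and 6.12% in PGC13M, and to 9.93% in SC11M. Thus a share like that of SC12M could have gone unlisted in any of these PGC libraries, whereas shares like those of SC11F and SC13M would have been listed in all 5.

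SerGCT-22G, which shares its parent and template with SerGCT-22C, was listed in SC13F with 133 reads and in SC13M with 1043. In SC13M the G and C forms were close (11.6% and 10.7% of the template), while in SC13F the G form stood at 2.08% beside 5.29% for the C form. In the other 9 libraries that listed the template, the lowest listed count was 2.66% to 9.93% of it.

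SerGCT-19C was listed in both cell types, with 109 reads in PGC11F, 141 in PGC11M, 92 in PGC12M, 161 in PGC13M, 129 in SC11F and 464 in SC13M. It reached 46.0% of its template in PGC13M and 27.5% in PGC11M, against 13.54% to 15.4% in the other 4 libraries. This is the sequence with an exact nuclear match at 1 place. SerGCT-19G was listed beside it in SC13M alone, with 294 reads.

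The T-ending forms of the series differed in where they were listed. SerGCT-31T had 119 reads in PGC12M, 201 in PGC13F, 110 in SC11F, 134 in SC12F and 273 in SC13F, and was unlisted in SC13M, where its template had 269 reads. SerGCT-21T had 107 reads in SC11F, 275 in SC13F and 304 in SC13M, at 11.4% to 15.6% of its template. SerGCT-27T (76 reads) and SerGCT-18T (116 reads) were listed in SC13M alone.

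SerGCT-26C and SerGCT-25C, which stand 1 base apart, were listed in the same 4 SC libraries and in no PGC library. SerGCT-26C had 252 reads in SC11F, 182 in SC12F, 138 in SC13F and 263 in SC13M, at 7.55% to 10.5% of its template. SerGCT-25C had 145, 96, 187 and 193 reads in the same order, at 6.48% to 9.27% of its template. In PGC libraries the lowest listed count was 5.62% to 17.2% of the template of SerGCT-26C and 6.14% to 16.5% of that of SerGCT-25C. For SerGCT-26C this limit lay under all 4 SC shares in PGC11F and PGC13F and above them in the other 4 PGC libraries. In SC12M, which did not list SerGCT-26C either, the limit was 5.45%, also under all 4 shares, and in SC11M it was 9.72%. PGC13F listed few C-ending sequences of any kind, so a C-ending form unlisted there cannot be read like one unlisted in PGC11F.

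Among the rRNA sequences, 12S-18T was listed in the most libraries. It had 121 reads in PGC11M, 117 in PGC12F, 135 in PGC13M, 288 in SC11F, 201 in SC11M, 286 in SC13F and 389 in SC13M. Relative to its template it ranged from 8.53% in PGC13M to 53.6% in SC11F, above 30% in 4 of the 7 libraries. 16S-18T had 86 reads in PGC11M, 270 in PGC13F, 106 in SC11M, 133 in SC13F and 191 in SC13M, and stood at 5.95% to 21.4% of its template in the libraries other than PGC13F. In PGC13F it stood at 80.8% of its template, which ends in C and had 334 reads there, and at 16.2% of its parent, which had 1662.

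Dloop-21A stood closest to its template of all sequences listed repeatedly. It had 142 reads in PGC11F, 135 in PGC13F, 108 in SC12F, 128 in SC12M, 133 in SC13F and 107 in SC13M, beside a lowest listed count of 66 to 109 in those libraries. It was unlisted in SC11F, where that count was 39.0% of the template and 12.7% of the parent, below its share in every library that listed both forms. Its percentage of the template was 74.0% in PGC11F, 77.7% in SC12F, 69.6% in SC12M, 46.2% in SC13F and 95.5% in SC13M, and the template was unlisted in PGC13F. The parent, which ends in a run of G, had 703 to 1046 reads in 5 of these libraries, where Dloop-21A was 13.3% to 15.2% of it, and 95 reads in PGC13F, where Dloop-21A was 142% of it. PGC11F also listed Dloop-21C (138 reads) from the same template.

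Phe-19C was chosen after its values were seen, since it is the only one of the 32 to cross the 3′ end of a tRNA gene. tRNA-Phe ends at position 68, position 69 lies between genes and is C in the mtDNA, and 12S rRNA begins at position 70, where the sequence has C in place of A. The fragment therefore continued past the last tRNA base with CC, the letters that open the CCA tail. It was listed in SC13F alone, with 133 reads, and neither a parent nor a template was listed, and the same sequence with 1 more base was not listed. 16S-18A, also named after its values were seen, crossed from 16S rRNA into tRNA-LeuTAA, with 11 bases in the first and 7 past its end, and was listed in PGC13F alone (198 reads).

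The comparison of the cell types asks whether SCs and PGCs differ in the mismatched forms. The 32 sequences held 1.24% ± 0.797 (SD, n = 6) of the mito-piRNA reads in PGC libraries and 4.23% ± 3.17 (SD, n = 6) in SC libraries. By library, the percentages in PGCs were 1.21% in 11F, 1.13% in 11M, 0.728% in 12F, 0.806% in 12M, 2.82% in 13F and 0.771% in 13M. In SCs they were 4.67% in 11F, 2.26% in 11M, 3.33% in 12F, 0.767% in 12M, 4.35% in 13F and 10.01% in 13M. The groups overlapped through SC12M, which lay among the lowest PGC libraries, and through PGC13F, which lay above SC11M. The extremes had 95% Wilson intervals of 0.608% to 0.872% (PGC12F) and 9.77% to 10.3% (SC13M), which cover counting error only.

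Matched on sex and day, the SC library had the larger value in 5 of 6 comparisons. A two-sided exact permutation test over the libraries gave p = 0.026 for the difference of 2.99 percentage points, and an adjusted p = 0.117 over 9 comparisons (Benjamini-Hochberg), which did not pass the threshold of 0.05. Without SC13M the SC mean was 3.08% ± 1.60 (SD) and the difference 1.83. Without SC12M the exact permutation test passed (difference 3.68, adjusted p = 0.0195). That pass rests in part on sequences listed in SC libraries alone, whose PGC values are known only to lie below the cut-off on listing. With unlisted sequences set to the lowest count of their library, the difference was 0.44 percentage points (adjusted exact permutation p = 0.872).

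Measured against the parents, the mismatched forms were 3.27% ± 1.17 (SD, n = 6) of the reads of both together in PGCs and 10.6% ± 6.89 (SD, n = 6) in SCs. The lowest, median and highest values were 2.17%, 3.01% and 5.46% in PGCs and 2.25%, 9.65% and 22.2% in SCs, again with SC12M low and SC13M high. The exact permutation p was 0.0173, adjusted to 0.117, and an exact permutation test within the pairs matched on sex and day gave p = 0.0625 (adjusted p = 0.1125). Without SC13M the SC mean was 8.25% ± 4.37 (SD). Without SC12M the difference was 8.96 percentage points with an adjusted exact permutation p = 0.0195. That p rests in part on sequences listed in SC libraries alone, whose PGC values are known only to lie below the cut-off on listing. With SC12M kept, pairs with both forms listed in the library gave a difference of 0.88 percentage points (adjusted p = 0.926, exact permutation test). It was 3.62 with the template in place of the parent (adjusted p = 0.146, exact permutation test). With unlisted sequences at the lowest count it was 0.51 (adjusted p = 0.872, exact permutation test).

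As a level in the whole library, the 32 sequences averaged 77.4 rpm ± 65.6 in the PGC libraries and 364 rpm ± 479 in the SC libraries (SD, n = 6 each), of which SC13M alone had 1314 rpm. Without it the SC mean was 173 rpm ± 125 (SD). On the log2(rpm + 1) scale the difference was 1.70 (exact permutation p = 0.0649, adjusted p = 0.146). An exact permutation test within the pairs matched on sex and day gave p = 0.0625 (adjusted p = 0.1125). Without SC12M the difference was 2.17 (adjusted exact permutation p = 0.0455), resting in part on sequences listed in SC libraries alone. With unlisted sequences at the lowest count it was 0.20 (adjusted exact permutation p = 0.872). Each library is a bulk fraction, so fewer cells of a type within it and less of an RNA in each cell cannot be told apart.

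No difference between the sexes passed the test for the 3 summed measures. The percentage of mito-piRNA reads was 2.85% ± 1.61 in females and 2.62% ± 3.66 in males (SD, n = 6 each, exact permutation p = 0.926), and the male value was higher in 2 of 6 pairs. The female libraries ranged from 0.728% to 4.67%, while 5 of the 6 male libraries stood at 0.767% to 2.26%, below SC13M. Without SC13M the male mean was 1.15% ± 0.641 (SD, exact permutation p = 0.0563, adjusted p = 0.169). Against parents it was 7.32% ± 4.44 in females and 6.52% ± 7.79 in males, or 3.40% ± 1.63 without SC13M, and the level was 163 rpm ± 127 and 278 rpm ± 509, or 70.8 rpm ± 38.9 without SC13M (SD). With all 12 libraries the exact permutation p against parents was 0.857 and for rpm 0.926, both with an adjusted p = 0.926. Where only pairs with both forms listed in the library entered, the male minus female difference against parents was -6.17 percentage points (exact permutation p = 0.039, adjusted p = 0.146), compared with -0.80 over all pairs. The direction of the difference between the sexes turned under several settings.

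By day, the percentage was 2.32% ± 1.65 at E11.5, 1.41% ± 1.28 at E12.5 and 4.49% ± 3.96 at E13.5 (SD, n = 4 each, exact permutation p = 0.269, adjusted p = 0.403), and the mean of E13.5 was 2.65% ± 1.80 (SD) without SC13M. The mean level was 127 rpm ± 77.4, 51.0 rpm ± 37.3 and 483 rpm ± 568 on the same days (SD, n = 4 each, exact permutation p = 0.0571, adjusted p = 0.146). Without SC13M the mean level of E13.5 was 206 rpm ± 151 (SD), and without PGC13M the adjusted exact permutation p for rpm was 0.0421. Against parents the adjusted exact permutation p was 0.403.

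Each sequence was examined with the quasi-likelihood test of edgeR in a fit of all 97 sequences listed in at least 3 libraries, with cell type, sex and day as factors; 10 of the 32 mismatched sequences entered it. For cell type, 1 of these 10 passed the threshold, SerGCT-22C (edgeR adjusted p = 0.0393), against 2 of all 97 tested (2.06%). SerGCT-22C was listed in 5 of 6 SC and 0 of 6 PGC libraries. It therefore passed the filter on libraries only through the SC group, and its fitted fold change depends on how zeros are treated and is not given. At an unadjusted threshold of 0.05 there were 3 of the 10 (SerGCT-22C, SerGCT-26C and SerGCT-25C) and 9 of the 97, but the edgeR adjusted p was 0.367 for SerGCT-26C and 0.414 for SerGCT-25C. These 3 all passed the filter through SC libraries alone.

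The call of SerGCT-22C was lost when any single one of 10 of the 12 libraries was left out, PGC11M and PGC13M being the exceptions, when unlisted sequences were set to the lowest listed count, and when libraries of the same sex and day were fitted as a block (0 of 10 called in each). DESeq2 called 3 of the 10, SerGCT-22C (adjusted p = 1.11e-05), SerGCT-26C (adjusted p = 0.00229) and SerGCT-25C (adjusted p = 0.0146), among 14 of 97. These 3 sequences were listed in SC libraries alone, so they entered the fit only through that group, and their unlisted values were taken as 0 although they are known only to lie below the cut-off. In the edgeR fit, sex and day gave 0 calls among the 10 and among the 97 (0%). At an unadjusted p under 0.05 there were 0 of the 10 for either factor, and 4 of the 97 for sex and 2 for day. DESeq2 called 1 of the 10 for sex, SerGCT-31T (adjusted p = 0.00387), which was listed in 4 female libraries and 1 male library, among 3 of 97, and 0 for day. SerGCT-31T passed the filter on libraries only through the female group, and its unlisted values were likewise taken as 0.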

How the data were processed

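Small RNA was sequenced from 12 samples, 1 library per sample. Per the study's methods, adapters were removed with Trim Galore, reads of the same sequence were merged, and sequences of 10 or more CPM were mapped by Bowtie to the nuclear genome and mtDNA, then searched in the piRNA-IPdb, each with up to 1 mismatch. The authors deposited raw counts, 1 whole number per unique sequence and library, without normalization. The submitters' processing notes name mm39, Trim Galore, FastQC and Bowtie.

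All 204 sequences were located in the GRCm39 mtDNA with up to 1 mismatch, annotated with GENCODE, and its form with each last base was searched exactly in the nuclear chromosomes. Unlisted sequences were taken as 0 reads. The rpm values divide by the library totals that the study states for sequences above its cut-off, because the files cover mito-piRNAs alone. The 3 summed measures were compared by two-sided exact permutation tests over all assignments of the libraries (difference of means, or F for day), with Benjamini-Hochberg adjustment over 9 comparisons. No condition has a replicate, so libraries that differ in the other factors served as replicates. Counts were fitted with edgeR 4.0.16 (glmQLFit, additive cell type, sex and day, library sizes from the study) over 97 sequences, and DESeq2 1.42.0 was an alternative. The edgeR fit was also run on simulated counts without a cut-off on listing, which cannot show how it handles unlisted sequences. Python 3.11.15 with scipy 1.17.1 and R 4.3.3 were used.

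Sequences named with values in the libraries were the 10 with the most reads, the most abundant for each last base, any whose mismatched base directly followed a tRNA or rRNA gene (none did), and any with an adjusted p under 0.05. Others are named where an exception or a series required it. The members, lists and tests were chosen with earlier results of these data known.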

Additional observations from a re-analysis of the deposited data

Results flagged for a closer look

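In all, 5 summed values of the 32 sequences were examined for libraries far from the others of their cell type, sex or day, and 10 of 35 such groups held one by Dixon's criterion, which chance gives in about 1 of 20 groups. The 5 values and the overlapping groups are not independent. SC13M was far above the other male libraries by each of them: 10.01% of mito-piRNA reads (next highest 2.26%), 22.2% of the reads of mismatched forms and parents (next 6.26%), 12.9% of the reads of mismatched forms and templates (next 3.42%), 1314 rpm (next 130 rpm) and 24 sequences listed (next 5). PGC13F was far above the other PGC libraries with 2.82% of mito-piRNA reads (next 1.21%) and 5.87% of mismatched forms and templates (next 1.86%). Several templates, ending in C or in T, were unlisted in that library.

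SC12F was far above the other libraries of E12.5, with 3.33% of mito-piRNA reads (next 0.806%), 8.003% of mismatched forms and parents (next 2.97%) and 4.62% of mismatched forms and templates (next 1.21%). The next highest library at E12.5 was PGC12M by each of these measures. The causes of these values were not tested.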

How the results depend on the processing

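The difference between cell types kept its direction under every alternative run for the 3 summed measures. Leaving out each library in turn gave 1.83 to 3.68 percentage points of mito-piRNA reads, 4.98 to 8.96 percentage points against parents and 1.16 to 2.17 on the log2 rpm scale. The other settings gave 0.44 to 3.04, 0.51 to 7.68 and 0.20 to 2.90, with the lowest values where unlisted sequences took the lowest listed count and 2.90 at the common cut-off of 25 rpm, and no adjusted p under 0.05. The difference between the sexes (male minus female) was -0.23 and -0.80 percentage points and -0.10 in log2, and turned to 0.23 and 0.30 percentage points with a common cut-off of 25 rpm and to 0.14 in log2 with unlisted sequences at the lowest listed count, which gave -2.36 and -2.16 percentage points for the other measures. Over all settings other than leaving out a library it was -2.36 to 0.23, -6.17 to 0.30 and -0.66 to 0.14, with no adjusted p under 0.05. Leaving out each library gave -1.70 to 0.14, -3.92 to 0.43 and -0.82 to 0.23. For day, the adjusted exact permutation p for rpm was 0.0421 to 0.307 over the libraries left out.

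Without the 3 sequences that have an exact nuclear match, the last base was A in 9.26% of the reads, C in 35.5%, G in 15.2% and T in 40.0%. Where the parent was listed, A held 7.26%. Without SC13M, an alternative chosen after seeing the data, the shares were 12.2%, 38.8%, 1.74% and 47.2%.

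In the edgeR fit, 1 of the mismatched sequences was called for cell type, among 2 of all 97. TMM normalization (2 of 97 in all) and the fit of all listed sequences (2 of 204) also gave 1, the lowest listed count for unlisted sequences gave 0 (0 of 97), and each library left out gave 0 to 1 (0 to 2 in all). Libraries matched on the other factors were used as a replicate block, since each sample is its own replicate 1 and the labels pair none; the block gave 0 calls (0 of 97 in all). DESeq2 gave 3 for cell type and 1 for sex, among 14 and 3 of all 97. Alternatives chosen after seeing the data also left out SC13M with PGC13F, or the G-ending sequences. Absence below the cut-off on listing, 1 library per condition and pooled litters limit all comparisons.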
